A study of Mus musculus with 4 samples.

Results

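The 9 immediate-early genes Egr1, Egr2, Ier2, Ier3, Ier5, Nr4a1, Nr4a3, Btg1 and Btg2 all carried at least 1 nucleotide at which an antibody against N6-methyladenosine (m6A) enriched the RNA in macrophages of both mice studied. So did 86.9% of the 7827 genes with called sites in both mice, at the fold limit of 8 used here. Nr4a1 and Nr4a3 passed that limit narrowly, each with 8.02 in mouse 1 and 8.67 in mouse 2. The 9 genes were taken by symbol: a called site belonged to them when the gene named beside it in the authors' table was one of the 9. They held 72 of 45668 called sites in mouse 1 and 74 of 47747 in mouse 2, and 82 different nucleotides over both mice. The macrophages were grown from bone marrow of wild-type mice (BMDM) and were exposed to lipopolysaccharide (LPS), a bacterial outer membrane component, for 3 h in every sample, so the mark could not be compared with unstimulated cells. Each of the 2 mice gave 1 immunoprecipitated (IP) and 1 input library, 4 libraries in all, of poly(A)-selected RNA. The labels give no age for the mice, and the term NTC in the names of the tables is left without explanation there.

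Immediate-early genes are transcribed within minutes of a stimulus from factors already present in the cell, and most of their transcripts are short-lived. Egr proteins are zinc finger transcription factors, Nr4a proteins are orphan nuclear receptors, Btg proteins restrain proliferation and recruit the CCR4-NOT deadenylase, which shortens poly(A) tails, and Ier proteins are a loosely related group of small regulators. m6A is written on adenosines inside messenger RNA, mostly near stop codons and in 3' UTRs, and YTH-domain readers can bind it and promote decay of the RNA.

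The assay, m6A-eCLIP, crosslinks the antibody to RNA and places each site at 1 nucleotide from where sequencing reads start. Every site has 2 values that are the authors' own: a score, above 10 for all listed sites, and a fold, the read starts of the IP divided by those of the same animal's input. Read numbers were not given, so the depth is unknown and a single fold carries no interval; the fold of both mice is printed instead. The tables hold no transcript levels, so neither the number nor the fold of sites could be set against abundance. Sites are called enriched here at a fold of at least 8, and shared when this held at the same nucleotide and strand in both mice. Called sites were found for 10 of 10 macrophage markers, 9 of them with a shared enriched site, against 1 of 5 T cell, 0 of 4 B cell, 2 of 5 neutrophil, 0 of 4 dendritic cell and 1 of 4 stromal and endothelial markers. Every called marker of the other cell types also had a shared enriched site, among them Lck (38.6 and 79.9) and Kdr (44.1 and 52.0). Among all genes with called sites in both mice, 86.9% had a shared enriched site, so the 9 of 10 macrophage markers lie near that background. The share of all genes that had a called site was not computed. With 1 IP per mouse and no second condition, no test over the 2 mice was run, and all values are descriptions.

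Of the 9 genes, Egr1, Ier3, Ier5 and Btg2 carried a 5' UTR site inside the stretch from 250 bases before to 50 bases after a start of the gene in RefSeq (GRCm38.p6). The neighbouring bases could be read for Ier3, Ier5 and Btg2. They are shown 5' to 3' on the transcribed strand, with 10 bases on either side and the called nucleotide in capitals, because they show the called base near a transcript start.
Ier3, chr17:35821676-35821696, plus strand: ggggatttgcActcctctaca
Ier5, chr1:155099622-155099642, minus strand: cgcagcgctcAgtttagagtc
Btg2, chr1:134079107-134079127, minus strand: aagtccgggcAgagcccgaga
The called base was an A preceded by C in all 3. It was followed by C in Ier3 and by G in Ier5 and Btg2. Over the 2252 shared enriched sites of all genes that fell in such a stretch, 100% of the called bases were A. Of these, 72.5% were preceded by C and 9.46% by G or A, while 49.5% were followed by G and 17.3% by C. The site of Egr1 lay 1 base after the RefSeq start, that of Ier5 4 bases after it and that of Btg2 38 bases after it. That of Ier3 lay 27 bases before it and was still annotated as 5' UTR by the authors. Among all 2252 sites, 27.0% lay within 5 bases of a start. Antibodies against m6A also bind m6Am, a related base found beside the cap at the first transcribed nucleotide, and the tables do not separate the marks. RefSeq start stretches were matched for 7 of the 9 genes, all except Egr1 and Ier2.

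The 9 genes together held 58 shared enriched sites, and 35 of these lay in the Ier genes. In mouse 1, 66 of the 72 called sites were enriched, or 91.7% (exact 95% interval 82.7% to 96.9%, counting error only), beside 81.7% of all called sites. In mouse 2, 66 of 74 were enriched, or 89.2% (79.8% to 95.2%), beside 79.1% of all called sites. Of the 64 member sites called in both mice, 58 were enriched in both, or 90.6% (80.7% to 96.5%), beside 76.9% of all 38082 sites called in both. All 9 genes had a shared enriched site, as did 86.9% of the 7827 genes for which both mice had called sites, so that count lies near the background. The sites of 1 gene share a transcript and are not independent. Over the 58 sites the median fold reached 31.3 in mouse 1 and 34.2 in mouse 2, beside 21.5 and 22.1 over the shared enriched sites of every gene. These medians rest mostly on the Ier genes and do not hold for each member. Over all called sites, the medians were 38.1 and 37.1 in Ier2, 56.6 and 27.9 in Ier3, and 33.2 and 43.8 in Ier5. They were 23.7 and 37.2 in Btg1, 22.3 and 18.8 in Egr2, and 21.1 and 27.0 in Btg2. Those of Egr1, Nr4a1 and Nr4a3 were at most 12.5.

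**Figure D1:**
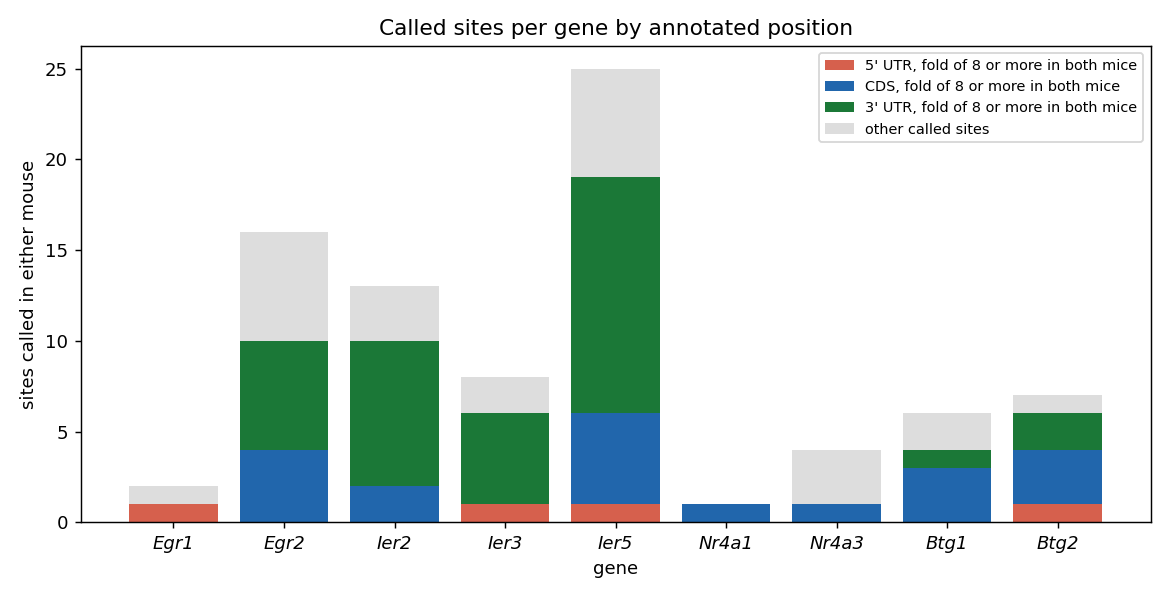
The bars give the number of sites called in either mouse for each gene, with sites at a fold of 8 or more in both mice coloured by annotated position and all other called sites in gray. Ier5 stands highest with 25 called and 19 shared enriched sites, and Egr1, Nr4a1 and Nr4a3 have 1 shared enriched site each.

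Ier5 encodes a nuclear regulator linked to heat shock factor 1 and to the phosphatase PP2A. It carried more shared enriched sites than the other members, 19 of 25 called sites, and 98.3% of the 6798 genes with a shared enriched site had fewer. The gene (ENSMUSG00000056708.5) spans positions 155096367 to 155099636 of chromosome 1 on the minus strand in RefSeq. Its 13 shared enriched sites in the 3' UTR, 5 in the coding sequence and 1 in the 5' UTR stretched over 1950 bases. The highest mean log2 fold belonged to a coding site at 155098651, with folds of 107 in mouse 1 and 177 in mouse 2. The coding site nearest the 3' UTR, at 155098541, had folds of 65.2 and 21.4. Only 47 bases downstream of it the first 3' UTR site, at 155098494, had 83.2 and 54.6, so the annotated end of the coding sequence lies between them. Further sites followed through the 3' UTR at unequal folds. The site at 155098388 had 98.3 and 102, the site at 155098174 had 83.8 and 84.7, and the site at 155098153 had 83.6 and 95.01. Lower down were the sites at 155097683 (14.4 and 18.9) and at 155097950, which missed the limit in both mice (4.12 and 7.09). The sites at 155098066 (17.9 and 47.2) and 155097892 (14.4 and 43.8) were low in mouse 1 only.

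Upstream in the Ier5 coding sequence the folds were mixed. The site at 155099333 had 10.6 in mouse 1 and 81.8 in mouse 2. The sites at 155099047 and 155099015 had 16.05 and 10.3, and 20.1 and 12.4. The site at 155099244 stayed under the limit in both mice (6.77 and 5.54). The highest fold of any member site in mouse 1, 234, was in the Ier5 3' UTR at 155097866, and the same nucleotide had 55.4 in mouse 2. Its scores were nearly equal, 89.7 and 87.2. The 5' UTR site at 155099632, shown above, had folds of 33.2 and 16.4.

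Ier2 encodes a small nuclear protein induced by growth factors. It carried 10 shared enriched sites, 8 in the 3' UTR and 2 in the coding sequence, in a RefSeq span of 1522 bases (ENSMUSG00000053560.5, chromosome 8, 84661331 to 84662852, minus strand). The highest mean was at 84661664 in the 3' UTR, with folds of 131 and 140 and scores of 127 and 136. A site 55 bases further downstream, at 84661609, had 76.2 and 167. The first 3' UTR site, at 84661965, had 69.9 and 104.0, and the next, at 84661903, had 94.3 and 91.5. The other shared 3' UTR sites were lower than these in at least 1 mouse, among them 84661847 (38.1 and 14.4), 84661741 (45.6 and 29.2) and 84661527 (28.7 and 37.1). The shared coding sites had 35.1 and 29.8 at 84662350 and 25.7 and 34.7 at 84662198. The called coding site farthest upstream, at 84662375, was not enriched in either mouse (6.35 and 5.14).

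Ier3, also called IEX-1, encodes a regulator of cell survival and is a target of NF-kB. Its 6 shared enriched sites were the 5' UTR site and 5 sites packed into the 3' UTR between 35822372 and 35822471 of chromosome 17 (ENSMUSG00000003541.6, 35821713 to 35822911, plus strand). The 5' UTR site at 35821686 had similar folds in both animals, 35.0 and 40.8. The site at 35822414 had 89.3 and 103, and the site 7 bases before it, at 35822407, had 97.3 and 27.6. The site at 35822471 had 121 in mouse 1 and 30.3 in mouse 2, while its scores were 92.8 and 96.4. Only 1 of the 5 sites in the 3' UTR was higher in mouse 2. The 2 coding sites, at 35822237 and 35822258, were enriched in mouse 1 alone, with 12.4 against 3.99 and 8.36 against 6.74.

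**Figure D2:**
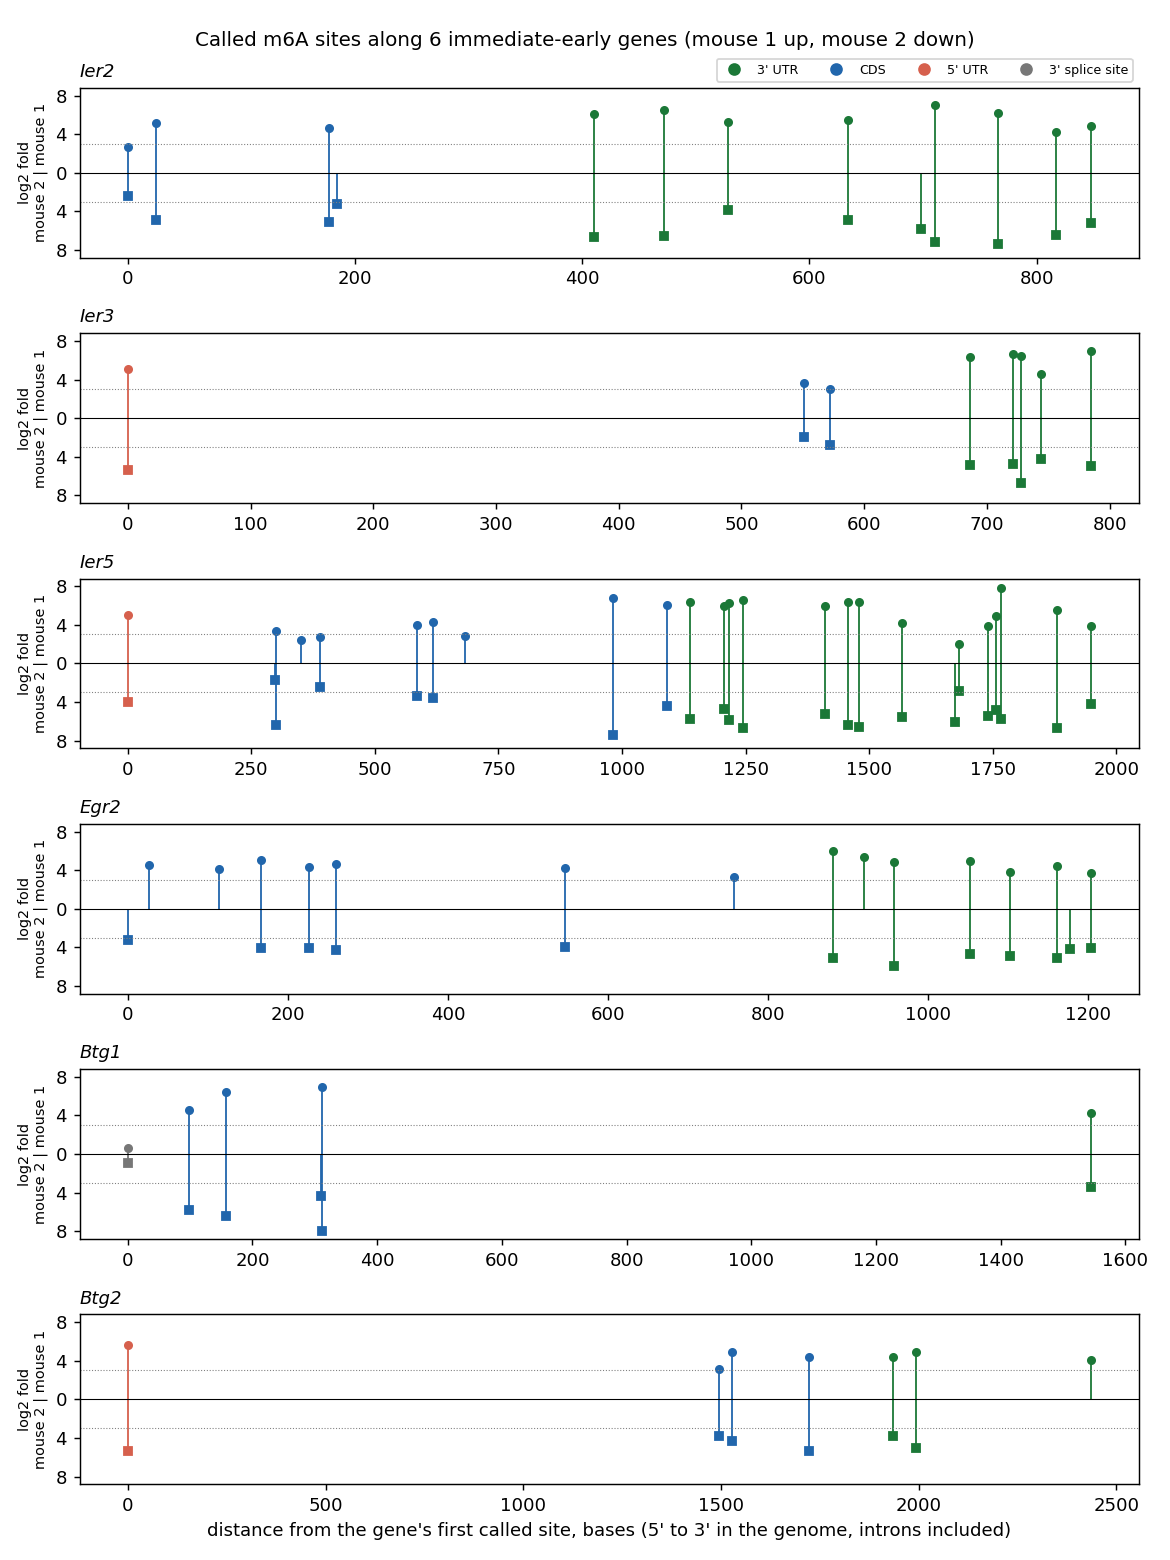
Each panel shows 1 gene, with called sites placed by distance in bases from its first called site and stems giving the log2 fold of IP over input, upward for mouse 1 and downward for mouse 2; dotted lines mark the limit of log2 3 and colours the annotated position. Ier2, Ier3, Ier5 and Egr2 show a run of 3' UTR sites in both mice, while in Btg1 the tallest stems are in the coding sequence.

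The Egr genes differed widely in the number of sites. Egr2 (Krox20), a zinc finger factor that also serves in macrophage activation, carried 10 shared enriched sites among 16 called (ENSMUSG00000037868.15, chromosome 10, 67534469 to 67542188, plus strand). Of these, 6 lay in the 3' UTR and 4 in the coding sequence. The highest mean was at the first 3' UTR site, 67541104, with 64.2 and 35.6, which lies 124 bases after the last called coding site. The 3' UTR site at 67541180 had 28.6 and 60.7, and that at 67541274 had 30.1 and 25.0. The 4 shared coding sites ranged from 18.1 to 32.1 in mouse 1 and from 15.4 to 19.3 in mouse 2. All 14 folds of mouse 1 and all 12 of mouse 2 were at least 9.63, so every called site of Egr2 passed the limit in the mouse that listed it.

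Egr1, the founding member of the family, carried 1 shared enriched site, with folds of 10.03 in mouse 1 and 15.4 in mouse 2. It was annotated as 5' UTR and lay at 34861208 on chromosome 18, 1 base after the start of the gene in RefSeq (ENSMUSG00000038418.7, 34861207 to 34864956, plus strand). Whether this site carries m6A or m6Am cannot be told apart here. In mouse 2 a second site, in the coding sequence at 34863068, had a fold of 9.63 and was not called in mouse 1. No called site of Egr1 was in its 3' UTR in either mouse.

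Both Nr4a genes were close to the limit throughout. Nr4a1 (Nur77), an orphan nuclear receptor of macrophages and lymphocytes, had 1 called site, in the coding sequence at 101270586 of chromosome 15, with 8.02 and 8.67 (ENSMUSG00000023034.7, 101253902 to 101274795, plus strand). Nr4a3 (Nor-1) had 1 shared enriched site, in the coding sequence at 48051720 of chromosome 4, with the same 2 folds (ENSMUSG00000028341.9, 48045078 to 48086447, plus strand). The scale of the folds is coarse, and these are 8 times the constant of the table of mouse 1 (1.003) and 9 times that of mouse 2 (0.963), in which 62.1% and 62.0% of all folds are whole multiples. The scores of the Nr4a1 site were 11.3 and 15.8, and those of the shared Nr4a3 site were 11.2 and 13.5, near the lowest listed score of 10. Nr4a3 had 3 more called sites, each in 1 mouse: coding sites at 48051771 in mouse 1 (9.03) and at 48051369 in mouse 2 (8.67), and a 3' UTR site at 48086060 in mouse 2 that was under the limit (4.81). Neither gene kept a shared enriched site when a score of at least 20 was required.

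Btg1 and Btg2, paralogues that slow proliferation, carried their highest folds outside the 3' UTR. In Btg1 (ENSMUSG00000036478.8, chromosome 10, 96617001 to 96622813, plus strand) the coding site at 96618583 had folds of 127 and 245, above 98.8% and 99.8% of all called sites, and the highest score of any member site in mouse 2 (139). The coding site at 96618430 had nearly equal folds of 86.7 and 85.0, and that at 96618370 had 23.7 and 54.1. The only called 3' UTR site of Btg1, at 96619817, had 19.1 and 10.6. A site at the 3' splice site, the end of the intron, at 96618272 stood apart. Its folds were 1.498 and 1.85, the lowest of all member sites, while its scores of 69.9 and 77.1 exceeded those of 84.0% and 86.5% of all called sites. Of all sites at 3' splice sites, 178 of 232 in mouse 1 and 210 of 251 in mouse 2 were under the limit, with median folds of 2.40 and 2.25 and median scores of 21.6 and 21.2.

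Btg2 (ENSMUSG00000020423.6, chromosome 1, 134074865 to 134079155, minus strand) had 6 shared enriched sites among 7 called. Its highest mean was at the 5' UTR site shown above, at 134079117, with 51.1 and 40.4. The 3 coding sites had 9.03 and 13.5 at 134077622, 29.1 and 20.2 at 134077588, and 20.6 and 40.4 at 134077394. The 5' UTR site was thus the highest of the gene in mouse 1 and level with a coding site in mouse 2. In the 3' UTR the sites at 134077181 and 134077125 had 21.1 and 14.4, and 29.1 and 33.7. Another 3' UTR site, at 134076681, was called in mouse 1 only (17.0).

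**Figure D3:**
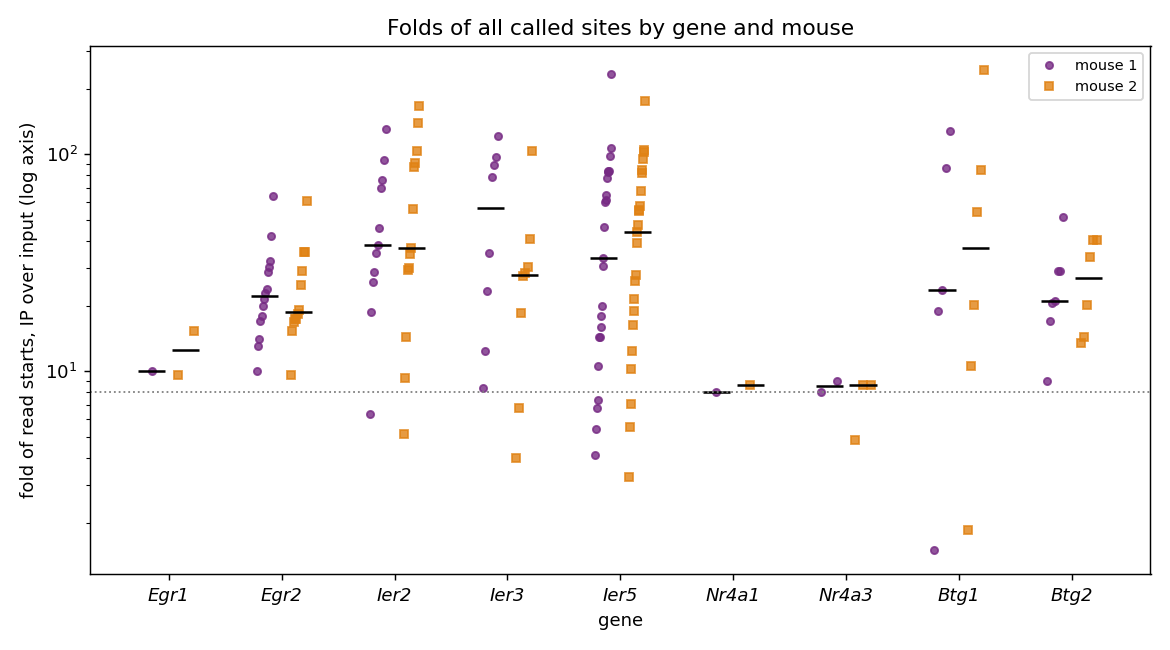
Points are the folds of IP over input (log axis) of all called sites of each gene, circles for mouse 1 and squares for mouse 2, with black bars at the medians and a dotted line at the limit of 8. The points of Ier2, Ier3, Ier5 and Btg1 pass 100 in both mice, and those of Nr4a1 and Nr4a3 lie at or under 9.03.

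Ordered by the mean log2 fold of the strongest shared site, the genes ran Btg1 (7.46), Ier5 (7.10), Ier2 (7.08), Ier3 (6.58), Egr2 (5.58), Btg2 (5.51), Egr1 (3.64) and, equal to each other, Nr4a3 and Nr4a1 (3.06). At these sites the values of the 2 mice overlapped for Btg1 with Ier5, Ier5 with Ier2, Egr2 with Btg2 and Nr4a3 with Nr4a1. They did not overlap between Ier2 and Ier3, Ier3 and Egr2, Btg2 and Egr1, or Egr1 and Nr4a3. Each gene is represented by 1 site picked as its strongest, from 19 shared enriched sites in Ier5 but 1 in Nr4a1. Ranges of 2 values at picked sites do not show which genes differ. The order and the ranks among all genes rest on the same pick. The strongest site of Btg1 exceeded that of 98.5% of the 6798 genes with a shared enriched site, that of Ier5 96.8%, and that of Egr1 9.96%.

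The 3' UTR held 35 of the 58 shared enriched sites of the members, 60.3% (46.6% to 73.0%), against 37.3% of all shared enriched sites. The coding sequence held 19 (32.8%, 21.0% to 46.3%, against 42.4%) and the 5' UTR held 4 (6.90%, 1.91% to 16.7%, against 13.6%). The share was highest in the Ier genes, in which 26 of 35 sites lay in the 3' UTR (74.3%, 56.7% to 87.5%). It was 6 of 13 in the Egr and Nr4a genes together and 3 of 10 in the Btg genes. All 6 lay in Egr2, where they were 6 of 10 shared enriched sites, and Egr1, Nr4a1 and Nr4a3 had none there. Shared enriched 3' UTR sites of the members had a median fold of 46.5 and 37.1 in the animals, against 23.1 and 24.1 for those of all genes. With 26 of these 35 sites in the Ier genes, the medians describe mostly those genes. The 6 sites of Egr2 ranged from 13.0 to 64.2 in mouse 1 and from 16.9 to 60.7 in mouse 2. The 3 sites of the Btg genes had 19.1 and 10.6, 21.1 and 14.4, and 29.1 and 33.7. For coding sites the members' medians were 23.7 and 20.2, against 22.3 and 23.1, and for the 4 sites in 5' UTRs they were 34.1 and 28.4, against 17.05 and 17.3.

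Sites lay close together in some of the members. The pooled median gap between neighbouring shared enriched sites of a member was 62 bases over 49 gaps. Over all genes it was 88, introns included. Within genes the median gap was 35 in Ier3, 59 in Egr2, 62 in Ier2 and 69 in Ier5. It was wider than 88 in Btg1 (153) and Btg2 (194). Egr1, Nr4a1 and Nr4a3, with 1 shared enriched site each, have no gap. Of the 49 gaps, 5 were of at most 20 bases. Per kb of RefSeq span, Ier2 held 6.57 shared enriched sites, Ier5 5.81 and Ier3 5.004. Of 6734 genes ranked in this way, 17 exceeded Ier2, 24 exceeded Ier5 and 36 exceeded Ier3. Because spans include introns, compact genes rank high. Among the 787 genes that span at most 5000 bases the median was 0.903 sites, and 17, 24 and 35 of them exceeded Ier2, Ier5 and Ier3. Btg2 (1.398), Egr2 (1.30) and Btg1 (0.688) were lower. Egr1 spans only 3750 bases and held 0.267 sites per kb, and 721 of the 787 short genes exceeded it. Nr4a1 (0.048) and Nr4a3 (0.024), which have long spans, were under the median of 0.123 over all ranked genes.

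Between the mice the folds of single sites were less closely related than their scores. Of the 58 shared enriched sites, 29 were higher in mouse 1 and 29 in mouse 2. The median absolute difference was 0.61 on the log2 scale, against 0.49 over all shared enriched sites, and 17 sites (29.3%, against 22.4%) differed more than 2-fold. The widest difference was at the Ier5 coding site 155099333, with folds of 10.6 and 81.8 (7.72-fold) and scores of 29.5 and 30.6. The adjacent base, 155099334, was a separate called site in mouse 2 only, with a fold of 3.27. The next widest difference was at the Ier2 3' UTR site 84661558, with 18.8 and 87.6 (4.66-fold) and scores of 96.9 and 112. Divided by the table constants, the folds were, as reduced fractions, 74/7 and 85 at 155099333 and 75/4 and 91 at 84661558. Reduced fractions do not give the read numbers, so the read starts of IP and input cannot be compared between the mice from them. Whether the mark differed between the animals was not tested. Across the 64 member sites called in both mice, Pearson's r was 0.77 for log2 folds and 0.93 for scores, against 0.74 and 0.91 across all 38082 sites. Within Ier5 (21 sites) the values were 0.67 and 0.95, within Ier2 (11 sites) 0.78 and 0.99, and within Egr2 (10 sites) 0.39 and 0.85. These points are sites, which share libraries and transcripts.

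In mouse 1, 88.9% of the members' called sites (79.3% to 95.1%) were also called in mouse 2, beside 83.4% of all called sites. In mouse 2, 86.5% (76.5% to 93.3%) were also called in mouse 1, beside 79.8%. The remaining member sites were 8 called in mouse 1 only and 10 called in mouse 2 only. Their median scores were 19.5 and 15.5, against 73.2 and 72.7 for the member sites called in both. The highest score among them was 69.4, at the Egr2 3' UTR site 67541142 of mouse 1, which had a fold of 42.1 there and was not listed for mouse 2. A fold of at least 8 was held by 6 of the 8 sites and by 8 of the 10.

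**Figure D4:**
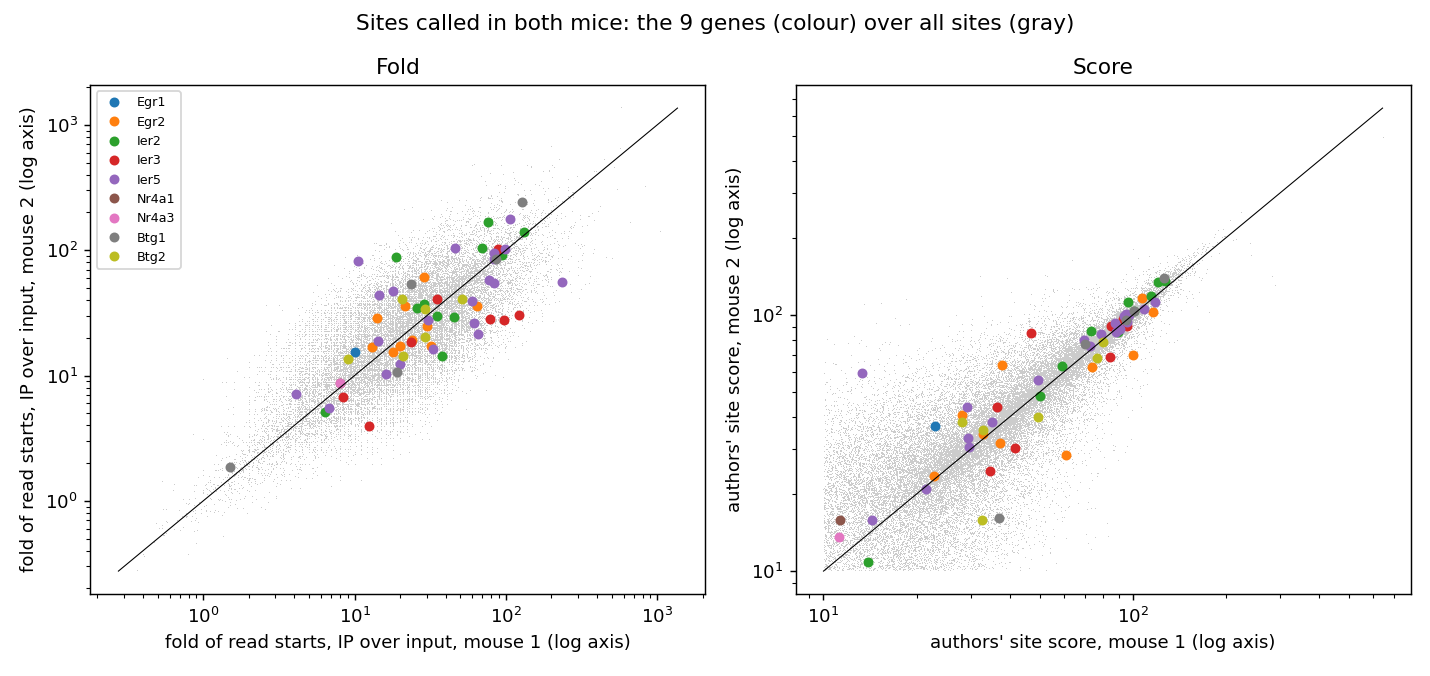
Each point is a site called in both mice, with mouse 1 on the horizontal and mouse 2 on the vertical axis (both log axes), for the fold of IP over input on the left and the authors' score on the right; colours mark the 9 genes, gray all other sites, and the line equality. Member sites scatter more widely around the line for the fold (r = 0.77) than for the score (r = 0.93).

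The relatives and partners of these genes, listed with earlier results of the data known, carried sites to unequal degrees. Of 8 paralogues, 3 had called sites (Tob1, Tob2 and Ier5l), each in both mice. Only Tob1, an antiproliferative relative of the Btg proteins, had a shared enriched site (12.03 and 16.4, coding sequence). That is 33.3%, beside the background of 86.9%, over only 3 genes. Tob2 (at most 9.03 and 8.67) and Ier5l (9.03 and 7.70) had called sites and no shared enriched site. Egr3, Egr4, Nr4a2, Btg3 and Btg4 had no called site in either mouse. All 14 genes with called sites among the co-regulators of Egr and Nr4a proteins and the serum response activators had a shared enriched site, beside the background of 86.9%, with 80 such sites in all. They were led by Nab2, a corepressor that binds Egr proteins (139 and 85.2), by the cAMP-responsive factor Crem (94.3 and 107) and by the acetyltransferase Crebbp (88.2 and 78.0). Nab1 had 35.1 and 96.3, and Srf, the factor that drives many immediate-early promoters, had 63.2 and 55.8.

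The deadenylase list held CCR4-NOT and PAN2-PAN3 subunits, and also Pabpc1, Pabpc4 and Prmt1, which are not deadenylase subunits. In this list 13 genes had a called site in both mice and 8 of these had a shared enriched site (61.5%, beside 86.9%). These 8, with 16 sites in all, included Prmt1 (10.5 and 28.9). Pan3, a subunit of the PAN2-PAN3 deadenylase, was highest (29.1 and 47.2), followed by the CCR4-NOT subunits Cnot9 (39.1 and 22.1) and Cnot4 (24.1 and 22.1). The catalytic subunit Cnot7, to which Btg1 and Btg2 bind, had 3 shared enriched sites (18.1 and 23.1 at the strongest). Cnot1 (at most 3.34 and 7.70) and Cnot6 (at most 7.35 and 30.8) had called sites in both mice and no shared enriched site. Of the other immediate-early genes, 27 of 28 with a called site in both mice had a shared enriched site (96.4%, beside 86.9%), with a median of 8 sites in each gene that had any. Jun (443 and 528), Jund (393 and 421) and Klf6 (209 and 453) were highest, with a mean log2 fold above that of all 9 members, while Fos, induced with Egr1 in many cells, had 5 shared enriched sites, the strongest with folds of 24.1 and 29.8. Zfp36l1, which encodes an RNA-binding decay factor, was the gene without a shared enriched site (10.03 and 4.81).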

How the data were processed

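One table per mouse was used, in which a row is a called site of 1 base. The score of each site was deposited by the authors without a definition in the labels. The fold is a ratio deposited by the authors, IP over input read starts, per the file headers. The tools listed in the submitters' processing notes are STAR (2.6.0c), UMI-tools (0.5.1) and cutadapt (2.7), and the builds are mm10 and hg38; the site caller is not given in the sources used here. Coordinates were read as mm10, which shares its coordinates with GRCm38.p6: 98.4% of sites with a gene found there lay inside that gene, as did 81 of the 82 member sites. Positions are 1-based, the end of each deposited interval. With that reading the called base was an A at all 2252 shared enriched sites inside RefSeq start stretches.

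The members and lists were chosen with earlier results of these data known. Named genes were the 9 members, the 3 highest genes of each list, up to 2 with called sites and none shared and enriched, and members of the same families. Nab1, Srf, Cnot7 and Fos were named after their values were seen. Sharing and the table constant were checked on simulated data. Intervals on shares are exact (Clopper-Pearson) at 95%. No model was fitted, since the tables hold no read counts. Alternatives covered the fold limit, the score, the overlap, merging, the table constant and each mouse alone. Scripts ran in Python 3.11.15 (pandas 2.3.3; NumPy 2.4.6; SciPy 1.17.1; Matplotlib 3.10.9).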

Additional observations from a re-analysis of the deposited data

How the results depend on the processing

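At a log2 fold of 2, 98.6% of the members' called sites in mouse 1 and 95.9% in mouse 2 were enriched, and at a log2 fold of 4 these shares were 73.6% and 70.3%. At a log2 fold of 4, 43 shared enriched sites were counted in 6 of the 9 genes, with none in Egr1, Nr4a1 and Nr4a3. Counts of genes with a shared enriched site were 2 paralogues at a log2 fold of 2 and 0 at a log2 fold of 4, against 1. In the deadenylase list 4 genes had one at a log2 fold of 4, against 8. Requiring a score of at least 20 left 52 shared enriched sites in 7 genes, with none in Nr4a1 and Nr4a3. Shares over all sites or genes were computed only at a fold of 8 and without a score limit. The values at the changed limits therefore cannot be set against a background. Sharing within 5 bases, merging of sites within 5 bases and division by the table constant each left 58. With 1 mouse left out the members' enriched sites numbered 66 for either mouse alone, the share in the 3' UTR was 56.1% to 57.6%, and the paralogues with an enriched site numbered 2 to 3. Leaving out mouse 1 gave 2 enriched sites in Egr1, and leaving out either mouse gave 2 in Nr4a3. No paired analysis was possible because no result comes from a test over samples; the deposited fold is itself the comparison within each mouse. The window around sites was not varied, since no genome was given. The unknown depth limits every single fold.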
